A study of Mus musculus with 2 samples.

Results

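The RNA of 10 genes of the circadian clock was followed in sorted mouse corneal epithelial cells, out of 31053 genes counted. The genes were Dbp, Tef, Hlf, Nr1d1, Nr1d2, Per2, Per3, Cry1, Arntl and Clock. They were chosen by name, with earlier results of these data known. The values below are their unique molecular identifier (UMI) counts, each UMI standing for a captured RNA molecule. All 10 were detected and all 10 were tested.

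CycB1-GFP mice, which report Cyclin B1, a protein of dividing cells, by green fluorescence, gave the corneal epithelium. The epithelium was lifted after a night in Dispase at 4 degrees C, dissociated with trypsin and sorted for live GFP+ cells, and libraries were built with 10x Genomics 3' v3 chemistry. All cells carried the same reporter and had the same treatment, in 1 group with 2 replicates. The sources used here give neither strain, age, sex, number of animals nor hour of collection, and do not name the promoter that drives the reporter. The barcodes carried 1 of 2 library numbers, which the labels do not tie to the replicate numbers, so the libraries are called 1 and 2.

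Of 6752 barcodes, 6188 were kept for having 500 or more genes detected and a mitochondrial UMI share under 20%, 3187 in library 1 and 3001 in library 2. They held 18773893 and 17796678 UMIs, with medians of 5571 and 5886 per cell. The labelled tissue was checked on 6 corneal epithelial markers, all detected in both libraries; Pax6, the eye transcription factor, stood at 512 and 438 CPM (a gene's UMIs per 1000000 UMIs of the library or of the cells named). Summed immune markers stood at 13.7 and 39.6 CPM with 6 of 6 detected. Summed keratocyte markers stood at 4.69 and 11.4 CPM with Kera, Col1a1 and Col1a2 at 0, and of 3 endothelial markers Cdh5 and Kdr were at 0 in both libraries. The part of these other cell types in the clock values was not tested. Cells were placed in 3 bands by the share of Krt12 in their summed Krt12 and Krt15 UMIs. Krt12 is the keratin of differentiated corneal epithelium and Krt15 a keratin of basal and limbal cells. The band under 0.4 held 663 and 959 cells, the band from 0.4 to 0.8 held 161 and 164, and the band above 0.8 held 2304 and 1821. Krt15 stood at 6842 and 9948 CPM in the band under 0.4 and at 232 and 247 CPM above 0.8, which the banding itself fixes.

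The clock is a feedback loop of transcription that runs in most cells of the body. CLOCK and ARNTL (also called BMAL1) bind E-boxes as a pair and drive the Per and Cry repressors, the REV-ERB repressors Nr1d1 and Nr1d2, and the output factors Dbp, Tef and Hlf, so that the RNA of several of them rises and falls over the day. REV-ERBs repress Arntl through ROR elements, and the products of Dbp, Tef and Hlf bind D-boxes. In the corneal epithelium, cell division has long been known to follow a daily rhythm.

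RefSeq promoters (GRCm38.p6, 250 bases before to 50 after a start site) were at hand for 9 of the 10 genes, with 13 start sites, and Per2 was the one with no entry. Motifs were found in 8 of the 13, and 5 of those 8 are printed, chosen to show each motif. The second Tef site (E-box), Nr1d2 and the third Clock site (ROR element core) also hold one and are not printed. They read 5′ to 3′ on the gene's strand, and capitals mark the motif.
Per3, chr4:151044616-151044915, minus strand: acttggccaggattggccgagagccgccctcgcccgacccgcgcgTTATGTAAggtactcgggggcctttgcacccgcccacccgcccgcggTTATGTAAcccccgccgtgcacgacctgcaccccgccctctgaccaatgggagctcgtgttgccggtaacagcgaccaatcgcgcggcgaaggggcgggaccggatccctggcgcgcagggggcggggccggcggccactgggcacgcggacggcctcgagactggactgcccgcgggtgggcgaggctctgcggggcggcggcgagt
Tef, first start site, chr15:81802423-81802722, plus strand: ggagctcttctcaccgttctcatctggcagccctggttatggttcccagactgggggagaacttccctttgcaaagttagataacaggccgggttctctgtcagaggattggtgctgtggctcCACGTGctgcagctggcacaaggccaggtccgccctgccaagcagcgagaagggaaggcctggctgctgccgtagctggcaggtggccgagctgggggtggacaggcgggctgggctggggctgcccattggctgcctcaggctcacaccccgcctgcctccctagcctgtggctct
Nr1d1, chr11:98775328-98775627, minus strand: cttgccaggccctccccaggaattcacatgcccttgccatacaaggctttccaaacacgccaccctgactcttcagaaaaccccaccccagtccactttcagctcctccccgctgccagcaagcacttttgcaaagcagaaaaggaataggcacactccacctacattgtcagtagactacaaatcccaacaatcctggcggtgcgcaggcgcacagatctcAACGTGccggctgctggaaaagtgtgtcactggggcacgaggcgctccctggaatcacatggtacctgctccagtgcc
Cry1, chr10:85185005-85185304, minus strand: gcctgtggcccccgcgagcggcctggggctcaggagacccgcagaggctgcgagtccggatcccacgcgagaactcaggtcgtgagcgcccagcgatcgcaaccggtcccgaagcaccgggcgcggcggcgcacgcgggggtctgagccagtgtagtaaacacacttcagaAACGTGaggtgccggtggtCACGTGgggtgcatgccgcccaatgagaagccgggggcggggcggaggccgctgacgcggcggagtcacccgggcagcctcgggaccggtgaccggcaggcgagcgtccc
Arntl, second start site, chr7:113207261-113207560, plus strand: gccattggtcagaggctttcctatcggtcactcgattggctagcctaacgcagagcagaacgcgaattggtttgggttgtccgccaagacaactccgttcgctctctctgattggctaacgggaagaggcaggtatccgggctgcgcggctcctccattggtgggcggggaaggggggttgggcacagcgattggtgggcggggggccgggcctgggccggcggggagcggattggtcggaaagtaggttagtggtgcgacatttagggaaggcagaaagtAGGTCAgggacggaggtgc
Motifs were searched on both strands, and no matches overlap in the promoters shown. Per3, which stood at a higher level in library 2, carries the D-box TTATGTAA at bases 46 and 93 of its window. A D-box (TTATGTAA or TTACATAA) is in 0.938% of 32851 promoters of this length and in 1 of the 13 member promoters. Tef and Cry1 both hold the E-box CACGTG, at base 124 and base 191. Tef was past 2-fold between the libraries described next and Cry1 was not. The E-box is in 7.15% of all promoters and in 3 of 13 here. Nr1d1 at base 223 and Cry1 at base 172 hold the variant AACGTG, which with its reverse CACGTT is in 4.68% of all promoters and 2 of 13 here. Arntl, the gene with the largest difference in the other direction, has the ROR element core AGGTCA at base 282, after its start site. That core, read as AGGTCA or TGACCT, is in 16.3% of all promoters and in 3 of 13 here. A match describes the letters only.

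The main pattern was a difference between the libraries. Dbp, Tef, Nr1d1, Nr1d2, Per2 and Per3 stood at over 2-fold higher CPM in library 2, and Arntl at over 2-fold higher CPM in library 1. Among 11352 genes with at least 50 UMIs over both libraries, 2.86% were past 2-fold higher in library 2 and 1.63% past 2-fold lower. So 6 of 10 members lay past 2-fold in the first direction and 1 of 10 in the second, in a list chosen with earlier results of these data known. Per2, 1 of the 6, had under 50 UMIs in library 1 and met that floor only through library 2. The median log2 difference, library 2 minus library 1, was 1.23 over the members and 0.0697 over the 11352 genes. With 1 sample on each side there is no test and no replicate error. The 95% intervals given (exact Poisson for a level, exact conditional binomial for a ratio) cover counting error only. A sum over cells does not tell more cells with an RNA from more RNA per cell, and levels are compared between cells or libraries and not between genes.

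**Figure D1:**
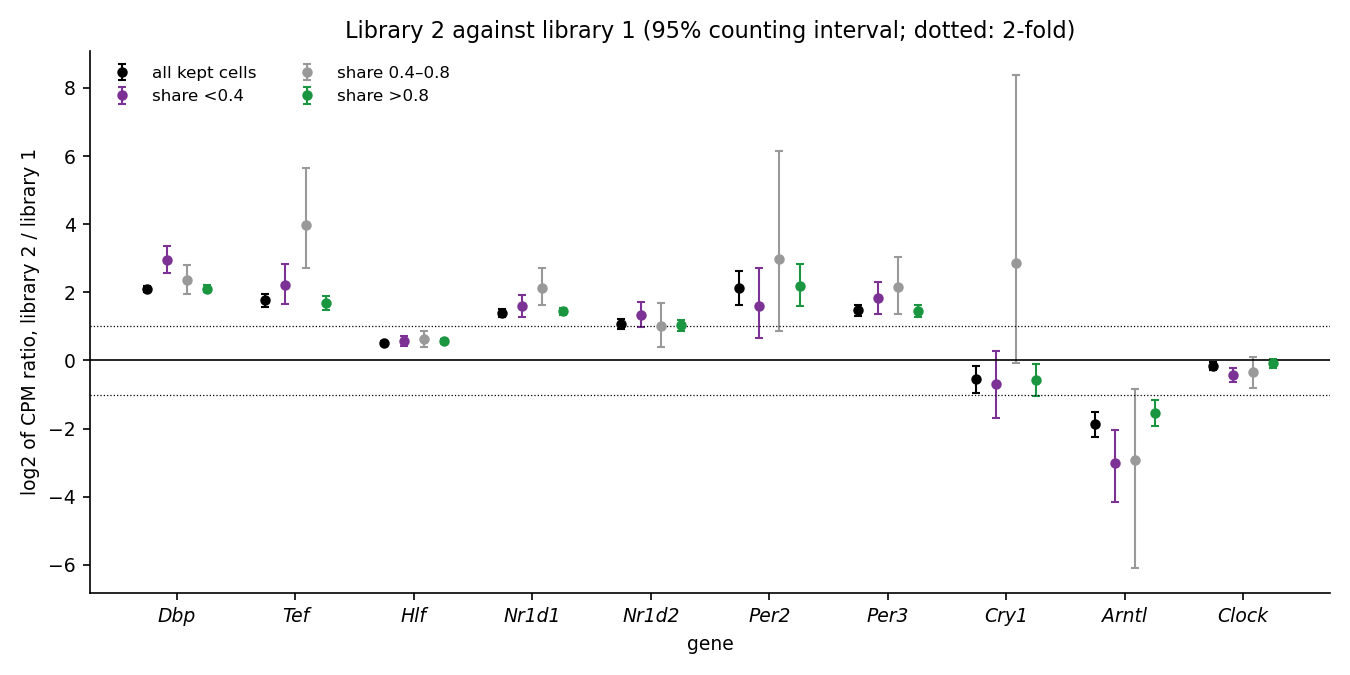
Log2 of the CPM ratio of library 2 to library 1 for each of the 10 genes, over all kept cells (black) and within each Krt12 share band (colours), with bars for the 95% exact counting interval and dotted lines at 2-fold. Over all kept cells Dbp, Tef, Nr1d1, Nr1d2, Per2 and Per3 lie above the upper line, at 1.06 to 2.12, and Arntl lies below the lower line at -1.87.

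Of the output factors, Dbp, a transcription factor that binds D-boxes, had 1030 UMIs in library 1 and 4194 in library 2. That was 54.9 and 236 CPM, a ratio of 4.29 (4.01 to 4.60). In order of rising Krt12 share Dbp stood at 16.6, 47.4 and 65.4 CPM in library 1 and at 128, 245 and 282 CPM in library 2. The lowest band of library 2 lay above the highest band of library 1. Tef, a relative of Dbp, had 315 and 1015 UMIs, or 16.8 and 57.0 CPM, a ratio of 3.40 (2.99 to 3.87). In the bands Tef stood at 8.04, 4.23 and 19.9 CPM in library 1, and at 37.5, 67.3 and 64.4 CPM in library 2. The middle band of library 1 rests on 5 Tef UMIs. Hlf, the third of these factors, had 4510 and 6078 UMIs, or 240 and 342 CPM, and its ratio of 1.42 (1.37 to 1.48) stayed under 2-fold. Hlf stood at 148, 215 and 267 CPM in the bands of library 1 and at 220, 335 and 396 CPM in those of library 2, so its bands overlapped between libraries.

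The REV-ERB repressors Nr1d1 and Nr1d2 differed in the same direction. Nr1d1 had 999 and 2495 UMIs, or 53.2 and 140.2 CPM, a ratio of 2.64 (2.45 to 2.84). From the lowest to the highest Krt12 share it stood at 27.2, 31.3 and 61.5 CPM in library 1 and at 81.9, 138 and 166 CPM in library 2. Nr1d2 had 547 and 1084 UMIs, or 29.1 and 60.9 CPM, a ratio of 2.09 (1.89 to 2.32). Its bands lay closer together, with 22.2, 27.1 and 31.2 CPM in library 1 and 55.8, 54.9 and 63.6 CPM in library 2. Every band of library 2 lay above every band of library 1 for both genes. Nr1d1 shares 1075 bases with Thra, a thyroid hormone receptor gene on the other strand, and Thra stood at 36.5 and 61.6 CPM. The sources used here do not say whether counting used strand, so the reads of these neighbours may not be fully separated.

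The Per genes, whose proteins repress CLOCK and ARNTL, differed likewise, and Cry1, their partner, stayed within 2-fold. Per2 was scarce, with 43 UMIs in library 1 and 177 in library 2, or 2.29 and 9.95 CPM, a ratio of 4.34 (3.097 to 6.21). Its bands read 3.05, 1.69 and 2.17 CPM in library 1 and 9.34, 13.3 and 9.87 CPM in library 2. The groups of bands did not overlap, though the middle band of library 1 holds 2 Per2 UMIs. Per3 had 459 and 1206 UMIs, or 24.4 and 67.8 CPM, a ratio of 2.77 (2.49 to 3.09). Its bands read 13.0, 13.5 and 28.5 CPM in library 1 and 45.9, 60.2 and 78.0 CPM in library 2, again with no overlap. Per3 lies wholly inside Camta1 on the same strand over 41014 bases, and Camta1 stood at 31.0 and 34.4 CPM. Cry1 had 137 and 89 UMIs, or 7.30 and 5.00 CPM, and its ratio of 0.685 (0.519 to 0.901) stayed within 2-fold. Its bands overlapped, at 5.82, 0.846 and 8.09 CPM in library 1 and 3.58, 6.20 and 5.46 CPM in library 2, with 1 UMI behind the value of 0.846.

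Of the activators, Arntl was the member with the opposite difference. It had 325 UMIs in library 1 and 84 in library 2, or 17.3 and 4.72 CPM, which was 3.67-fold higher in library 1 (2.88 to 4.72). Its bands read 16.1, 13.5 and 18.0 CPM in library 1 and 1.99, 1.77 and 6.24 CPM in library 2. All bands of library 1 lay above all bands of library 2, whose 2 lower bands hold 10 and 2 Arntl UMIs. Clock, its partner, had 1562 and 1326 UMIs, or 83.2 and 74.5 CPM, a ratio of 0.895 (0.832 to 0.964). Clock stood at 118, 84.6 and 73.7 CPM in the bands of library 1 and at 87.6, 66.4 and 69.8 CPM in those of library 2, which overlapped.

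**Figure D2:**
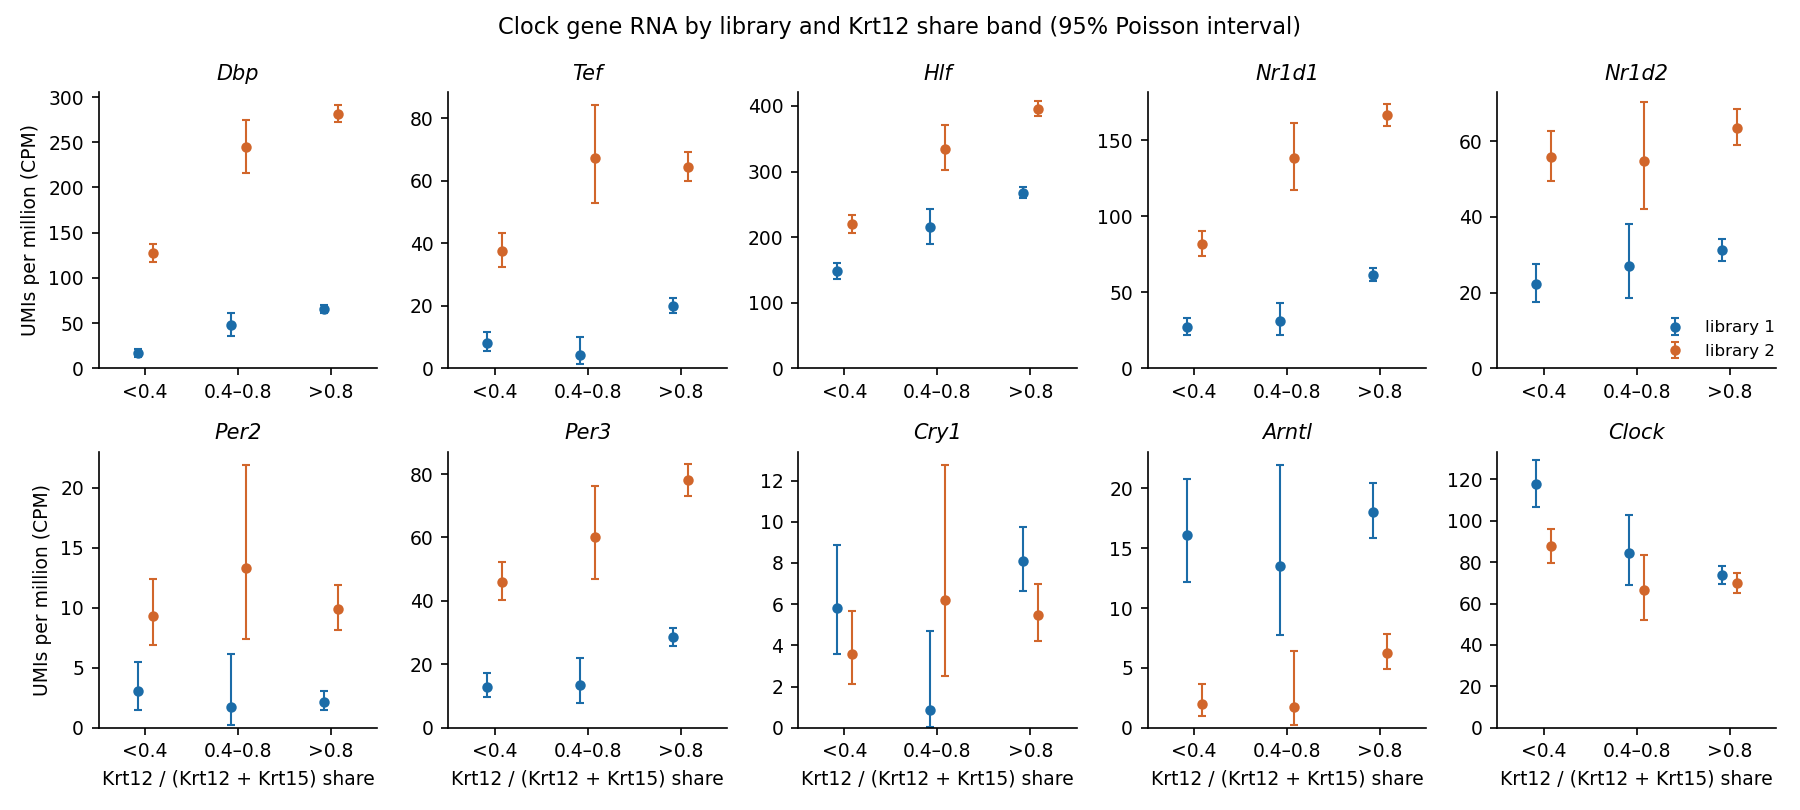
Level of each gene in CPM (linear axis from 0) by Krt12 share band for library 1 and library 2, with bars for the 95% exact Poisson interval. Dbp ranges from 16.6 to 65.4 CPM in library 1 and from 128 to 282 CPM in library 2, whereas Arntl lies at 13.5 to 18.0 CPM in library 1 and at 1.77 to 6.24 CPM in library 2.

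The bands were then split by whether a cell held a Ccnb1 UMI, which gave 6 sums for each library. The 6 sums of library 2 lay above the 6 of library 1 for Dbp, Tef, Nr1d1, Nr1d2, Per2 and Per3, and below them for Arntl. Of 11328 genes with at least 50 UMIs, 1.57% were fully above and 1.87% fully below. Per2 met that floor only through library 2. The Dbp sums ran from 15.4 to 73.8 CPM (median 48.1) in library 1 and from 124 to 296 CPM (median 237) in library 2. The Arntl sums ran from 8.89 to 18.1 CPM (median 16.7) in library 1 and from 0 to 6.70 CPM (median 2.81) in library 2. Hlf, Clock and Cry1 overlapped. The 6 sums of a library are parts of 1 sample and not replicates.

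Other values moved with the library. The 8 immediate early genes listed (Fos, Fosb, Jun, Junb, Egr1, Atf3, Ier2 and Dusp1, which respond within minutes to handling and other signals) were all detected and summed to 6481 CPM in library 1 and 2780 CPM in library 2. Egr1 went the other way, at 87.4 and 133 CPM. In the band above 0.8, 6 limbal markers summed to 8100 and 4317 CPM, of which Krt14 made up 6651 and 3372, while Gpha2 (39.7 and 66.8 CPM) and Krt15 (232 and 247 CPM) were not lower in library 2. There 7 conjunctival markers summed to 1815 and 890 CPM, of which Krt6a made up 1670 and 724, while Krt4 (6.64 and 8.23 CPM), Krt8 (6.93 and 25.3 CPM) and Muc4 (13.1 and 40.2 CPM) went the other way. In the band under 0.4 the conjunctival markers summed to 2374 and 3292 CPM. Cells of the band above 0.8 were also compared without any Fos, Fosb or Atf3 UMI, 215 in library 1 and 380 in library 2, a split chosen after seeing the data. Their median UMIs were 4808 and 3933, against 5867 and 6616 in the cells with such a UMI. Of 7 members with at least 50 UMIs over both libraries there, 4 stayed past 2-fold higher, against 2.51% of genes. These were Dbp, Nr1d1, Tef and Per3. Each had under 50 UMIs in library 1 and met the floor only through library 2, so the count of 4 is not weighed against that share. Dbp stood at 46.4 and 276 CPM (ratio 5.94, 4.41 to 8.18), Nr1d1 at 26.1 and 104 CPM (3.99, 2.65 to 6.24), Tef at 20.3 and 72.9 CPM (3.59, 2.24 to 6.01) and Per3 at 36.8 and 88.9 CPM (2.42, 1.68 to 3.56). In the whole band these 4 ratios were 4.31, 2.71, 3.23 and 2.74. Hlf read 416 and 417 CPM in those cells (1.00, 0.888 to 1.13) and 255 and 393 CPM in the 2089 and 1441 cells with such a UMI (1.54, 1.47 to 1.61). Nr1d2 read 45.5 and 55.6 CPM without (1.22, 0.850 to 1.78) and 30.0 and 65.0 CPM with (2.16, 1.90 to 2.46). For Hlf and for Nr1d2 the interval took in a ratio of 1 in the cells without these UMIs and did not overlap that in the cells with them. The part of the marker sums and of depth in the library differences was not tested. Arntl stood at 26.1 and 5.56 CPM in the cells without, on 27 and 9 UMIs, and was not counted since it fell under the floor of 50 UMIs.

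**Figure D3:**
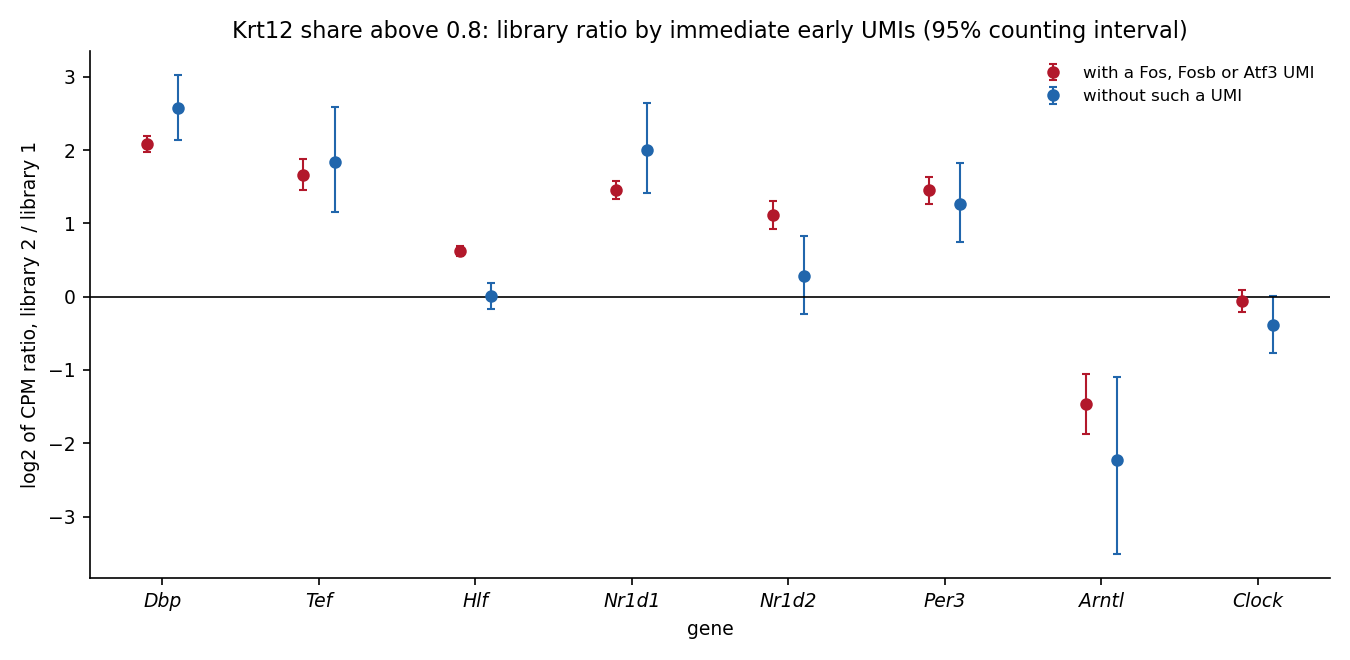
Log2 of the CPM ratio of library 2 to library 1 in cells of the band above 0.8 with (red) and without (blue) a Fos, Fosb or Atf3 UMI, for 8 of the genes (Per2 and Cry1, with few UMIs, are not drawn), with 95% exact counting intervals. Both Dbp points lie far above 0, whereas Hlf (416 and 417 CPM) and Nr1d2 (45.5 and 55.6 CPM) have intervals that take in 0 in the cells without such UMIs and lie above 0 in the cells with them.

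In the band under 0.4, cells with a Gpha2 UMI (a limbal marker) and no Krt13 or Krt4 UMI (conjunctival keratins) numbered 234 and 347. There Dbp stood at 23.6 and 169 CPM (ratio 7.17, 4.82 to 11.1), and 5 of 7 members with at least 50 UMIs over both libraries were past 2-fold higher, against 2.07% of genes. Dbp had under 50 UMIs in library 1 there. In the whole band under 0.4 of library 1, Tef and Per3 had 29 and 47 UMIs. These genes could meet the floor only through library 2, so the count of 5 is not weighed against that share. Cells with Krt13 or Krt4 and no Gpha2 numbered 108 and 119, and only 4 members reached 50 UMIs over both libraries. Of these, 1 was past 2-fold higher, against 2.69% of genes. That 1 was Dbp, with 5 and 45 UMIs (ratio 9.67, 3.85 to 31.2). Dbp met the floor of 50 only through library 2, so the count of 1 is not weighed against that share. Nr1d1 had a ratio of 1.36 (0.791 to 2.38) in those cells. Both splits were chosen after seeing the data.

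Across bands, Dbp, Hlf, Nr1d1 and Per3 were lower in the cells rich in Krt15 than in those rich in Krt12, and Clock was higher. This comparison has 2 libraries, each of which gave all 3 bands, and library was the block in edgeR's quasi-likelihood test with Benjamini-Hochberg adjustment over 11140 genes. The block takes up the difference in level between these 2 libraries. The p-values rest on how far the band differences vary between them, a spread that the fit moderates with that of all genes tested. At an adjusted p under 0.05, 15.6% of genes were lower and 16.9% higher in the band under 0.4 than above 0.8, and 4 members were lower and 1 higher. The count of higher members is not above the background. The median log2 fold change was -0.751 over the members and -0.00547 over all genes tested. Other lists moved with the bands. The 8 immediate early genes summed to 3908 and 1572 CPM under 0.4 and to 7315 and 3328 CPM above 0.8. Egr1 went the other way in library 1, at 98.7 against 85.2 CPM, and stood at 93.4 against 150 CPM in library 2. Conjunctival markers summed to 2374 and 3292 CPM under 0.4 and to 1815 and 890 CPM above 0.8. Krt4 stood at 358 and 567 CPM under 0.4 against 6.64 and 8.23 CPM above 0.8, and Krt13 at 313 and 529 against 79.2 and 63.2 CPM. Krt6a, the most abundant of that list, went the other way in library 1, at 1285 against 1670 CPM, and stood at 1303 against 724 CPM in library 2. Immune markers summed to 2.22 and 38.5 CPM under 0.4, mostly Cd74 (1.66 and 37.9 CPM), and to 0.361 and 2.17 CPM above 0.8. The part of these genes in the band differences was not tested.

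Of the output factors, Dbp fell by 1.43 on the log2 scale (SE 0.16, edgeR adjusted p = 0.000167). Within libraries 1 and 2 the CPM difference of Dbp was -1.97 (-2.38 to -1.6) and -1.14 (-1.27 to -1.02), with counting intervals that do not overlap. Hlf fell by 0.88 (SE 0.084, edgeR adjusted p = 1.24e-09), with almost the same difference in both libraries, -0.856 and -0.850. Tef was at -0.99 (SE 0.33, edgeR adjusted p = 0.0928) and did not pass, though it passed under 5 of the alternative settings. Of the repressors, Nr1d1 fell by 1.12 (SE 0.12, edgeR adjusted p = 4.76e-08) and Per3 fell by 0.92 (SE 0.14, edgeR adjusted p = 7.15e-06). Both were lower in each library, Nr1d1 at -1.18 and -1.02 and Per3 at -1.13 and -0.766. Nr1d2 (-0.33, SE 0.13), Cry1 (-0.57, SE 0.34) and Per2 (0.048, SE 0.30) did not pass, with edgeR adjusted p of 0.0527, 0.227 and 0.931.

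Clock rose by 0.48 (SE 0.10, edgeR adjusted p = 0.000587), at 0.677 (0.51 to 0.842) in library 1 and 0.328 (0.157 to 0.497) in library 2. The Clock call was lost with DESeq2 (adjusted p = 0.0593) and in cells without a Ccnb1 UMI (edgeR adjusted p = 0.0801), with adjusted p from 8.28e-05 to 0.13 over the alternatives. Arntl was at -0.62 (SE 0.27, edgeR adjusted p = 0.0882), and its libraries read differently: -0.168 (-0.606 to 0.25) in library 1 and -1.65 (-2.77 to -0.689) in library 2. Those counting intervals do not overlap, and neither do those of Clock and Dbp. No test of these differences between libraries was possible with 1 sample each. Without library as a block, 0 of the 10 members passed (edgeR adjusted p from 0.102 to 0.666 for the 5 called genes).

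In the middle band, Hlf fell by 0.30 (SE 0.09), Nr1d1 by 0.52 (SE 0.14) and Per3 by 0.61 (SE 0.18) against the band above 0.8, with edgeR adjusted p of 0.037, 0.0218 and 0.0394. In libraries 1 and 2 the difference was -0.315 and -0.242 for Hlf, -0.974 and -0.269 for Nr1d1, and -1.07 and -0.374 for Per3, whose library 1 value rests on 16 UMIs. These 3 of 10 members stand beside 2.92% of genes lower and 4.15% higher, and 0 members were higher. The other 7 did not pass, among them Dbp, and Tef, at -2.24 in library 1 (on 5 UMIs) and 0.065 in library 2. With DESeq2, without the block and in cells without a Ccnb1 UMI, 0 members passed. Over all alternatives the adjusted p ran from 0.00975 to 0.814 for Hlf, from 0.000872 to 0.937 for Nr1d1 and from 0.00843 to 0.924 for Per3. The middle band holds 161 and 164 cells and could hold pairs of cells caught in 1 droplet, since no doublet caller was run.

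**Figure D4:**
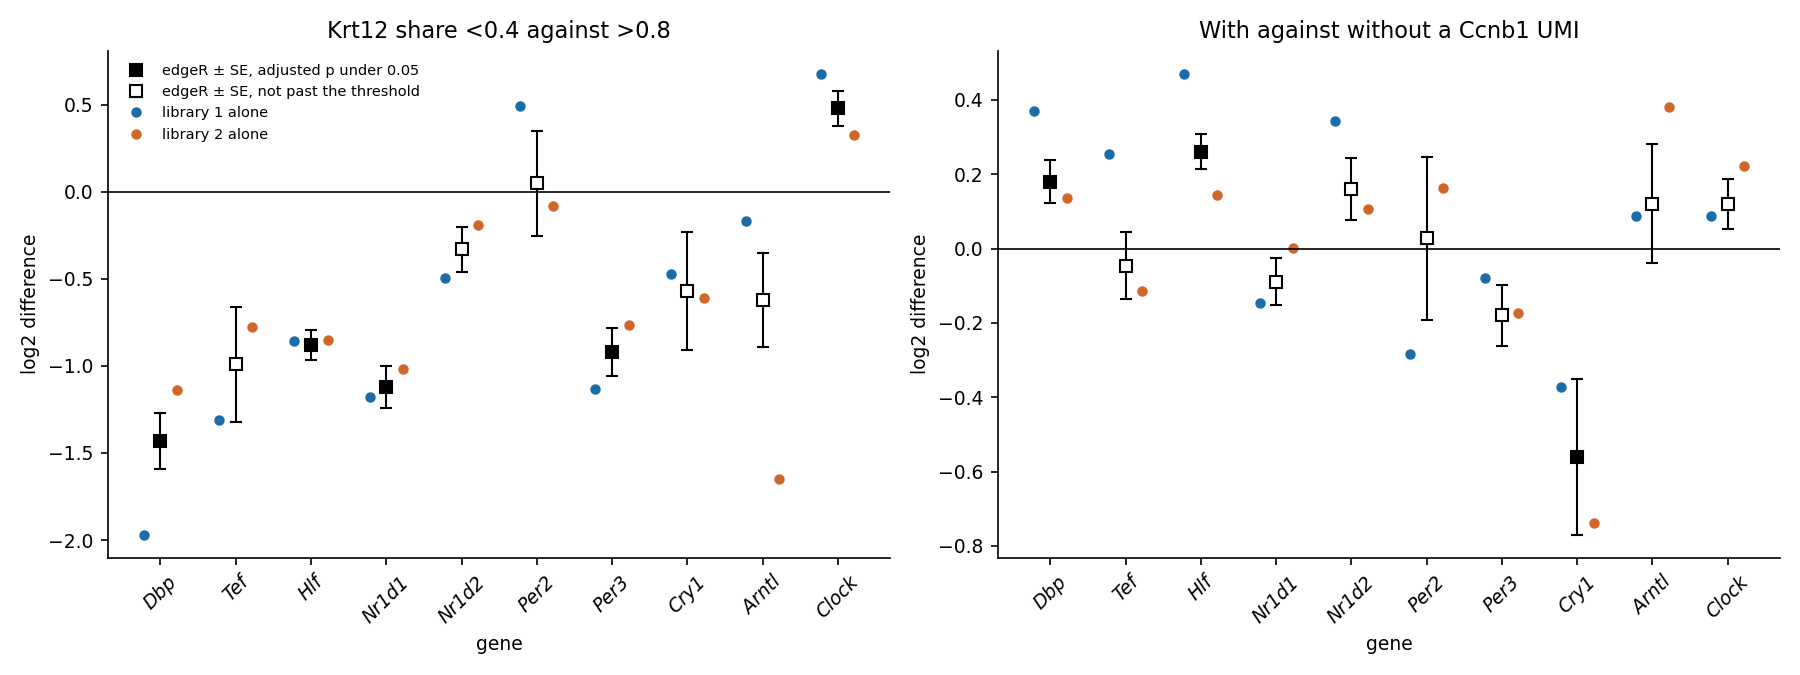
Log2 difference of each gene between the bands under 0.4 and above 0.8 (left) and between cells with and without a Ccnb1 UMI (right). Squares are the edgeR log2 fold change with its SE, filled where the adjusted p was under 0.05, and dots are the difference within library 1 and library 2 alone. On the left Dbp, Nr1d1, Per3 and Hlf lie at -1.43, -1.12, -0.92 and -0.88 and Clock at 0.48, and on the right the squares stay between -0.56 and 0.26.

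Cells with a UMI of Ccnb1, the gene of Cyclin B1, differed by small amounts in clock RNA from those without one, with Hlf and Dbp higher and Cry1 lower. They numbered 1518 and 1385 against 1669 and 1616, with median UMIs of 6395 and 6600 against 4793 and 5038. Hlf stood at 274 and 357 CPM with Ccnb1 and at 198 and 323 CPM without, and was 0.26 higher (SE 0.047, edgeR adjusted p = 6.76e-07). Dbp stood at 60.9 and 246 CPM with and at 47.1 and 224 CPM without, and was 0.18 higher (SE 0.058, edgeR adjusted p = 0.0181). Both were higher with Ccnb1 in each library, Dbp by 0.369 and 0.137. Hlf was higher by 0.47 (0.382 to 0.558) in library 1 and 0.144 (0.0708 to 0.218) in library 2, with counting intervals that do not overlap. Cry1 stood at 6.46 and 3.83 CPM with and at 8.36 and 6.39 CPM without, and fell by 0.56 (SE 0.21, edgeR adjusted p = 0.0439), at -0.372 and -0.737 in the libraries. So 2 of 10 members were higher and 1 lower, where 8.11% and 9.49% of 11700 genes were, and the count of lower members is near the background. With no scaling for composition those shares were 11% and 7.26%. The other 7 lay between -0.18 and 0.16 and did not pass. When cells without Ccnb1 were drawn to match the UMI totals of cells with it, Dbp was at 0.016 (edgeR adjusted p = 0.941) and Cry1 at -0.52 (0.242), and Hlf alone passed. The Cry1 call was lost under every alternative tested (adjusted p from 0.0533 to 0.872), the Dbp call under 6 of them (adjusted p from 0.00328 to 0.998), and with DESeq2 0 members passed.

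Whether the Ccnb1 difference itself differed between the outer bands was tested on the 12 sums. By edgeR's quasi-likelihood test 0 of 10 members passed, where 0.0379% of 10554 genes passed in each direction and 612 genes had an unadjusted p under 0.05. Hlf came nearest at -0.30 (unadjusted p = 0.00937, edgeR adjusted p = 0.663).

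Of 23 further clock gene symbols listed, 22 were found and 19 could be tested between bands. The symbol not found was Chrono, which may be another name of Ciart, also listed. In the band under 0.4 against above 0.8, 8 of the 19 were lower and 3 higher, where 15.6% and 16.9% of all genes were, so the count of higher genes is near the background. Their median was -0.322, against -0.00547 over all genes. Among the ROR and period genes, Rora, an activator of Arntl, fell by 2.41 (SE 0.14, edgeR adjusted p = 4.77e-14) and Per1 fell by 0.92 (SE 0.19, edgeR adjusted p = 0.000248). The repressors Ciart, Cry2 and Bhlhe40 fell by 1.90, 1.09 and 0.87, with edgeR adjusted p of 0.00018, 1.48e-05 and 0.0121. Libraries 1 and 2 read -1.15 (-3.1 to 0.34, on 4 UMIs under 0.4) and -2.09 for Ciart, -0.818 and -1.21 for Cry2, and -0.493 and -1.2 for Bhlhe40. Tsc22d3, a glucocorticoid-induced gene, fell by 1.02, Thra by 0.37 and Wee1, a kinase that restrains entry into mitosis, by 0.32, with edgeR adjusted p of 2.93e-06, 0.0222 and 0.0141. Por, a reductase partner of cytochrome P450 enzymes, rose by 1.12 (SE 0.093, edgeR adjusted p = 6.55e-11). Npas2, a relative of Clock that can take its place, rose by 2.07 (SE 0.46, edgeR adjusted p = 0.000648), and Nfil3, a repressor at D-boxes, rose by 2.86 (SE 0.52, edgeR adjusted p = 0.00169). Nfil3 stood at 17.2 against 1.37 CPM in library 1 and at 3.38 against 1.13 CPM in library 2, a difference of 3.65 and 1.58, and Npas2 differed by 2.29 and 1.84. In the middle band Por rose by 0.85 and Rora fell by 1.01, with edgeR adjusted p of 3.34e-06 and 8.03e-05. That is 1 of 19 in each direction, near the 4.15% of all genes higher and 2.92% lower. With Ccnb1, of 20 tested, Timeless fell by 0.99 (SE 0.13, edgeR adjusted p = 6.39e-13) and Wee1 rose by 0.17 (SE 0.06, edgeR adjusted p = 0.0305). These counts, 1 of 20 each way, are not above the 9.49% of all genes lower and 8.11% higher.

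Between libraries, 4 of the 20 further clock genes with at least 50 UMIs were past 2-fold, 3 of them higher in library 2 and 1 lower, where 2.86% and 1.63% of all genes were. Ciart, with 41 UMIs in library 1, met that floor only through library 2. Nfil3, with 40 UMIs in library 2, met it only through library 1. Ciart stood at 2.18 and 9.66 CPM (ratio 4.42, 3.13 to 6.38). Bhlhe41, a repressor at E-boxes, stood at 4.63 and 19.4 CPM (4.19, 3.31 to 5.37). Cry2 stood at 13.2 and 29.0 CPM (2.20, 1.89 to 2.58), beside 7.30 and 5.00 CPM for its relative Cry1. Nfil3 was lower, at 4.69 and 2.25 CPM (0.479, 0.321 to 0.704). Rora, at 60.8 and 62.4 CPM, and Per1, at 15.2 and 18.9 CPM, were not past 2-fold. The median log2 difference over these 20 was 0.175, against 0.0697 over all genes.

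The genes most like Dbp and most like Arntl were sought among 5809 genes with a mean of at least 20 CPM over the 12 sums, by Pearson correlation of log2(CPM + 1). The 12 sums come from 2 libraries, so a gene that differs between libraries scores high, and the correlations are a description. Thra (0.965), Myh14 (0.961), Cd82 (0.959), Gas6 (0.954) and Itpr3 (0.950) followed Dbp most closely, and Nr1d1 was at 0.957. Thra shares bases with Nr1d1, as given above. Tgif1 (0.960), Uqcc2 (0.944), Atf3 (0.941), Csnk1d (0.934) and Zfp36l1 (0.915) followed Arntl, and Atf3 belongs to the immediate early list above. With values centred within each library, an alternative added after seeing the data, Hlf was at 0.890 with Dbp, Nr1d1 at 0.822, Nr1d2 at 0.649, Per3 at 0.592 and Clock at -0.753. The other members were lower or negative, with Arntl at 0.227, Tef at 0.186, Cry1 at 0.00372 and Per2 at -0.34. The 5 closest to Dbp were then Lamtor2, Cyfip2, Fzd6, Asap2 and Pdcd5, none of which was among the 5 found without centring.

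The genes are placed by the GENCODE M21 annotation of GRCm38, in which 30934 of 31053 gene identifiers were found. Dbp (chr7:45705088-45710203) and Arntl (chr7:113207465-113314126) lie on chromosome 7 and Tef (chr15:81802421-81826863) on chromosome 15, all on the plus strand. The others lie on the minus strand. Hlf (chr11:90336536-90390895) and Nr1d1 (chr11:98767932-98775333) are on chromosome 11, Nr1d2 (chr14:18204054-18239127) on 14, Per2 (chr1:91415982-91459324) on 1 and Per3 (chr4:151003652-151044665) on 4. Clock (chr5:76209868-76304792) is on chromosome 5 and Cry1 (chr10:85131700-85185064) on 10. Dbp shares 737 bases with Sphk2 on the other strand, and Sphk2 stood at 23.3 and 26.0 CPM.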

How the data were processed

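Single-cell RNA was measured in 1 group of sorted corneal epithelial cells with 2 labelled replicates. The authors deposited a single matrix of UMI counts, raw and whole per gene and barcode, written by software version 3.1.0 per the file headers. Cell Ranger 3.1.0, Seurat 5.0.0 and the builds GRCm38 and mm10 are named in the submitters' processing notes, without roles. The sources used here do not give the annotation, cell calling, use of strand or any equalising of depth between libraries. Libraries were read from the number in the barcode, and 5 barcode sequences occurred in both.

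Barcodes with under 500 genes (475) or at least 20% mitochondrial UMIs (311) were left out. Cells with at least 5 UMIs of Krt12 and Krt15 together were placed in bands. No doublet caller was run; an alternative left out the 3% of cells with the most UMIs. Raw UMIs were summed per library and band (6 sums), Ccnb1 class (4 sums) or both (12 sums). The sums were fitted with edgeR 4.0.16 (quasi-likelihood, robust, TMM, filterByExpr; R 4.3.3) with library as the block, because the sums of a library come from 1 sample, or with library by band as the block for the interaction. Residual degrees of freedom were 2, 1 and 3. P-values were adjusted over all genes tested by Benjamini-Hochberg, and a standard error is the log2 fold change divided by the square root of the F statistic. DESeq2 1.42.0 and the other settings in the closing section were alternatives. On simulated data where 200 genes were given a log2 change of 1, the band fit recovered 79% (5 false calls among 11140 genes), the Ccnb1 fit 85% (15 among 11700) and the interaction 52.5% (4 among 10554). The simulated sums had no difference between libraries and took their spread from the fit itself. These counts are therefore not error rates of the fits to the real data.

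Named are all 10 members, any gene of the further clock list past an adjusted p of 0.05 or past 2-fold between libraries, Thra, and the 5 genes most like Dbp and Arntl. The members, lists and tests were chosen with earlier results of these data known. Promoter letters are from RefSeq.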

Additional observations from a re-analysis of the deposited data

How the results depend on the processing

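Between the outer bands 5 members passed, 0 with no replicate block, 7 with no filter on low counts, 6 without the 3% of cells with the most UMIs, thinned to 1900 UMIs per cell or with band limits 0.3 and 0.9, 4 in cells without a Ccnb1 UMI, and 5 otherwise. For the middle band 3 passed, against 0 with DESeq2, 0 with no replicate block, 0 in cells without a Ccnb1 UMI, 1 each without the top 3% of cells, thinned, and with those band limits, 2 with no composition factor or at least 1000 genes per cell, 4 with no filter, and 3 otherwise. For Ccnb1 3 passed, against 0 with DESeq2, 0 with no replicate block, and 1 each with DESeq2 size factors, without the top 3% of cells, thinned, and matched on total UMIs, and 2 under the other settings. Between libraries 7 members were past 2-fold, against 4 in cells above 0.8 without Fos, Fosb or Atf3, 1 of the 4 with enough UMIs in cells under 0.4 with Krt13 or Krt4 and no Gpha2, 5 in the middle band and in Gpha2 cells, 6 in cells with Ccnb1, and 7 otherwise. The 1 in the cells with Krt13 or Krt4 was Dbp, which met the floor on UMIs only through library 2. The 4 in the cells without Fos, Fosb or Atf3 also met it only through library 2, as did Dbp in the Gpha2 cells. So did Per2 wherever it was counted. The cause of the changes in these counts was not tested. In the band and Ccnb1 fits that kept both libraries, some uncalled values turned sign. Between bands these were Per2 under 0.4 (-0.0068 with at least 1000 genes per cell, -0.57 thinned), Arntl in the middle band (0.40 thinned) and Clock in the middle band (-0.26 without Ccnb1 cells). For Ccnb1 they were Tef (0.012 with DESeq2, 0.061 matched) and Arntl (-0.049 thinned). Others turned sign with a library left out, among them Tef (0.065) and Cry1 (0.18) in the middle band without library 1. Over all genes, the band fit called 1885 higher and 1740 lower, against 984 and 793 with DESeq2, 865 and 688 with no replicate block, 1108 and 1029 thinned, and 1165 and 1107 in cells without Ccnb1. For the middle band 462 and 325 became 304 and 100 with DESeq2, 65 and 12 with no block, 141 and 95 thinned, and 185 and 124 without Ccnb1 cells. For Ccnb1 949 and 1110 became 168 and 152 with DESeq2, 19 and 7 with no block, 355 and 400 thinned, and 1292 and 850 with no composition factor. The low UMI counts of Per2, Arntl and Cry1 limit what could be seen. Leaving out a library gives a value with no test, and the report prints those values for the called members and for some of the others.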

Other observations

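Cells outside the bands, with under 5 UMIs of Krt12 and Krt15 together, numbered 59 in library 1 and 57 in library 2, with medians of 1573 and 1331 UMIs. Dbp had 9 UMIs there in library 1, or 66.2 CPM (30.3 to 126, exact Poisson 95% interval), and 22 in library 2, or 251 CPM (157 to 379). The Dbp intervals do not overlap. Hlf stood at 147 CPM (89.9 to 227) and 239 CPM (148 to 366), and Nr1d1 at 88.3 CPM (45.6 to 154) and 56.9 CPM (18.5 to 133), with overlapping intervals. Arntl had 1 UMI in library 1 and 0 in library 2, where a count of 0 allows up to 34.2 CPM.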
